A study of Mus musculus with 24 samples.

Results

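The comparison described here asked what adding AcP to neurons that express AcPb does to their response to IL-1b. It is the difference between the IL-1b response of the AcP+AcPb arm and that of the AcPb arm, tested across 45037 probe sets on 12 of the 24 arrays of the series. The 12 arrays were chosen by their titles, with 3 in each of 4 groups: AcPb control, AcPb IL-1b, AcP+AcPb control and AcP+AcPb IL-1b. All 4 groups were embryonic mouse cortical neurons of genotype Il1rap-/-, so the controls, too, carried that genotype, and within an arm the groups differed in the stimulus. The arms differ in which Il1rap product was put back, AcPb by itself or AcP together with AcPb. Stimulated cells received IL-1b at 10 ng/ml and control cells a control stimulus, and RNA was taken at 4 h. The cells grew in a serum-free neuronal medium with a B-27 supplement. How AcP and AcPb were introduced, and in what share of the cells, is not stated in the labels. The labels do not tell whether the 3 arrays within a group are separate cultures or animals, and the p-values then describe the spread among these samples alone, which may be technical.

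IL-1b binds the IL-1 receptor type 1, and the pair then needs an accessory chain to assemble the adaptor MyD88 and the kinases of the IRAK family inside the cell. AcP is the widely expressed accessory chain. AcPb is a product of the same gene, Il1rap, made by alternative splicing in the nervous system, with a different intracellular part. Downstream of the assembled receptor lie NF-kB and the MAP kinases, whose targets include chemokines, acute phase proteins and inhibitors of the pathway itself.

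The values are one-colour probe set intensities. Array medians lay between 58 and 63.45, and the mean correlation between replicates was 0.984 to 0.986 in the 4 groups. Because 16.6% to 18.2% of the values of an array were below 0, negative values were set to 0 and 16 was added before taking log2. A difference of 1 is therefore 1 log2 unit on that scale, which understates changes of dim genes, and a group below 0 has a fold that depends on the added 16. The labels' descriptions carry an array code. It was 21 on all 6 AcPb arrays, 22 on AcP+AcPb controls 1 and 2, and 23 on AcP+AcPb control 3 and on the 3 AcP+AcPb IL-1b arrays. Arm and code cannot be told apart, and within the AcP+AcPb arm control 3 alone shares a code with the stimulated arrays.

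With AcP present, IL-1b raised a set of chemokines, NF-kB targets and acute phase genes whose responses in neurons with AcPb did not pass the test. The response difference was called, at an adjusted p under 0.05 by limma, for 25 probe sets. Of these, 20 were higher (0.0444% of those tested) and 5 lower (0.0111%), and 13 differed by at least 1 log2 unit. At an unadjusted p under 0.05 there were 2916 probe sets, where chance gives 2252. The median difference over all probe sets was 0. In 13 of the 20 higher probe sets, which stand for 11 genes, the larger of the 2 responses was a rise in the AcP+AcPb arm: Cxcl1, Cxcl10, Tnfaip2, Steap4, Ccl2, Ptx3, Gadd45b, Swt1, Lsm7, Cyp2j13 and Tapbp. In 9 probe sets of either direction the larger response was that of the AcPb arm. With the array code as a block, control 3 alone stands for the AcP+AcPb controls. Single results of that fit are therefore given as sizes of the response difference, while counts over settings include it. All 25 differences kept their sign in that fit. Fitted on all 24 arrays, 11 of the 25 were called. With the replicate number as a block, Tnfaip2 (1438855_x_at) alone among the 25 kept its call. The count also depended on single arrays: leaving out control 3 of the AcP+AcPb arm gave 69, leaving out its IL-1b array 1 gave 51, and leaving out IL-1b array 1 of the AcPb arm gave 39.

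**Figure D1:**
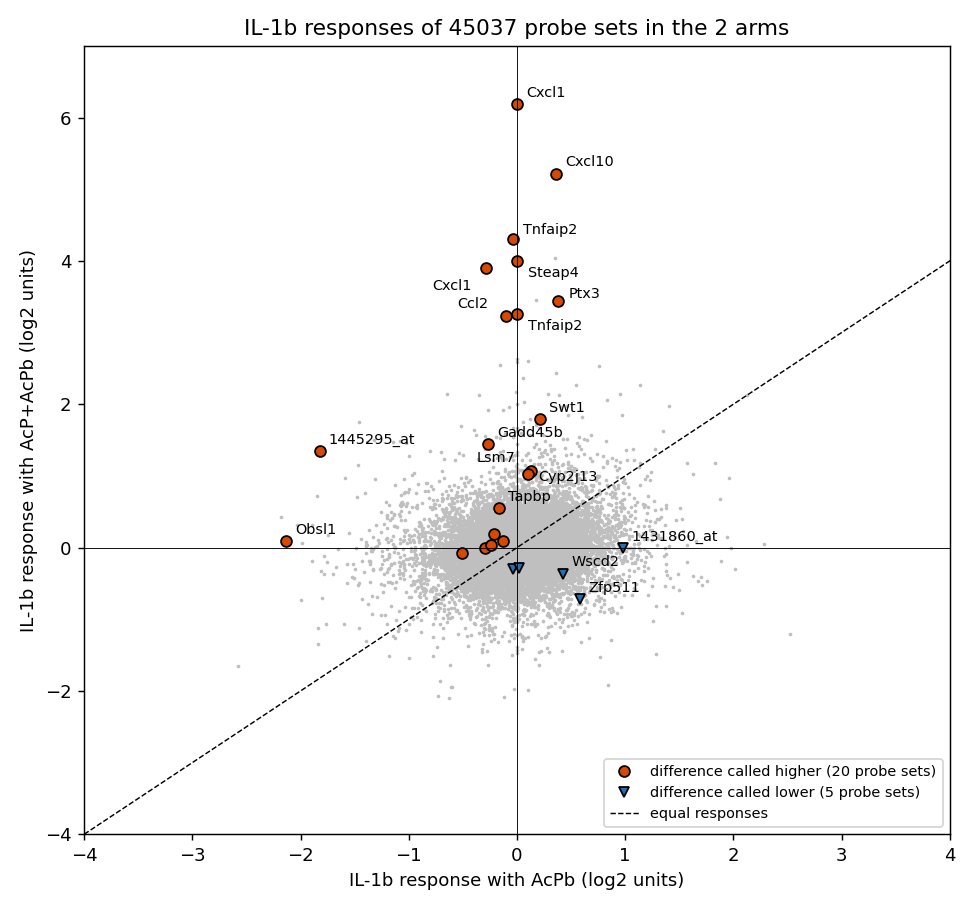
IL-1b response in the AcPb arm (horizontal axis) against that in the AcP+AcPb arm (vertical axis), both in log2 units, for 45037 probe sets in grey. The 20 probe sets called higher (orange circles) and 5 called lower (blue triangles) lie off the dashed line of equal responses, and Cxcl1 lies at 0.00 with AcPb and 6.19 with AcP+AcPb.

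The chemokines Cxcl1 and Cxcl10 had the largest called differences, while Tnfaip2 and Steap4 lay above the chemokine Ccl2. Cxcl1, which attracts neutrophils, read -5.52, -4.11 and -8.38 intensity units in AcPb controls and -21.7, -6.89 and -0.42 with AcPb and IL-1b (probe set 1419209_at). In AcP+AcPb neurons it read -4.54, 6.31 and 30.3 without the stimulus and 1577, 1673 and 2375 with it. Every AcP+AcPb IL-1b array stood far above the other 9, all 6 AcPb arrays were below 0, and the highest control was AcP+AcPb control 3. The difference in response was 6.19 ± 0.47 log2 units (SE, adjusted p = 0.0124), made of a rise of 6.19 with AcP+AcPb and 0.00 ± 0.33 with AcPb. With the array code as a block, which measures the AcP+AcPb rise from control 3 alone, it was 5.33. A further Cxcl1 probe set, 1457644_s_at, gave 4.18 ± 0.42 (adjusted p = 0.02, with the call lost without AcPb control 1), on group means of 205, 165, 183 and 2906 in the order AcPb control, AcPb IL-1b, AcP+AcPb control and AcP+AcPb IL-1b. The remaining one, 1441855_x_at, gave 2.04 ± 0.27 and lay just outside the threshold (adjusted p = 0.0609).

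Cxcl10, a ligand of the receptor CXCR3 on activated T cells, read 16.2, 16.7 and 4.76 in AcPb controls and 19.7, 21.6 and 18.7 after IL-1b. In the AcP+AcPb arm the controls read 24.3, 56.4 and 82.3 and the stimulated arrays 1998, 2246 and 3225. All 6 AcPb arrays lay below the lowest AcP+AcPb control, while the AcP+AcPb groups did not overlap. The difference was 4.85 ± 0.47 (adjusted p = 0.018). The AcP+AcPb response was 5.22 ± 0.33 (adjusted p = 0.000872) and the AcPb response 0.36 ± 0.33 (adjusted p = 0.784). Ccl2, which attracts monocytes, read 72.3, 52.0 and 62.8 in AcPb controls and 48.1, 64.5 and 58.1 with IL-1b. With AcP+AcPb it read 65.7, 73.9 and 81.3 without and 620, 743 and 1224 with the stimulus. The 9 other arrays of Ccl2 spanned 48.1 to 81.3, and its difference was 3.34 ± 0.32 (adjusted p = 0.018).

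Over the whole chemokine list, 27 of 28 genes were on the array with 43 probe sets. The difference was called higher for 4 probe sets and lower for 0, against 0.0444% and 0.0111% of all probe sets. The median difference was 0.00, as over all probe sets. In 8 of the 43 (18.6%) all 3 AcP+AcPb IL-1b arrays lay above the other 9 arrays, as in 1.39% of all probe sets. Cxcl2 and Cxcl5, further neutrophil attractants, had responses in the AcP+AcPb arm that passed the test, but their differences did not. Cxcl2 read 15.3, 9.05 and 7.41 in AcPb controls, 4.12, 17.9 and 3.45 with AcPb and IL-1b, 14.1, 20.5 and 13.7 in AcP+AcPb controls and 135, 150 and 247 with AcP+AcPb and IL-1b. These groups did not overlap between the last and the first 3, and the difference was 2.71 ± 0.38 (adjusted p = 0.0852). Fitted on all 24 arrays, where the spread is estimated from 8 groups, its adjusted p was 0.0017.

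**Figure D2:**
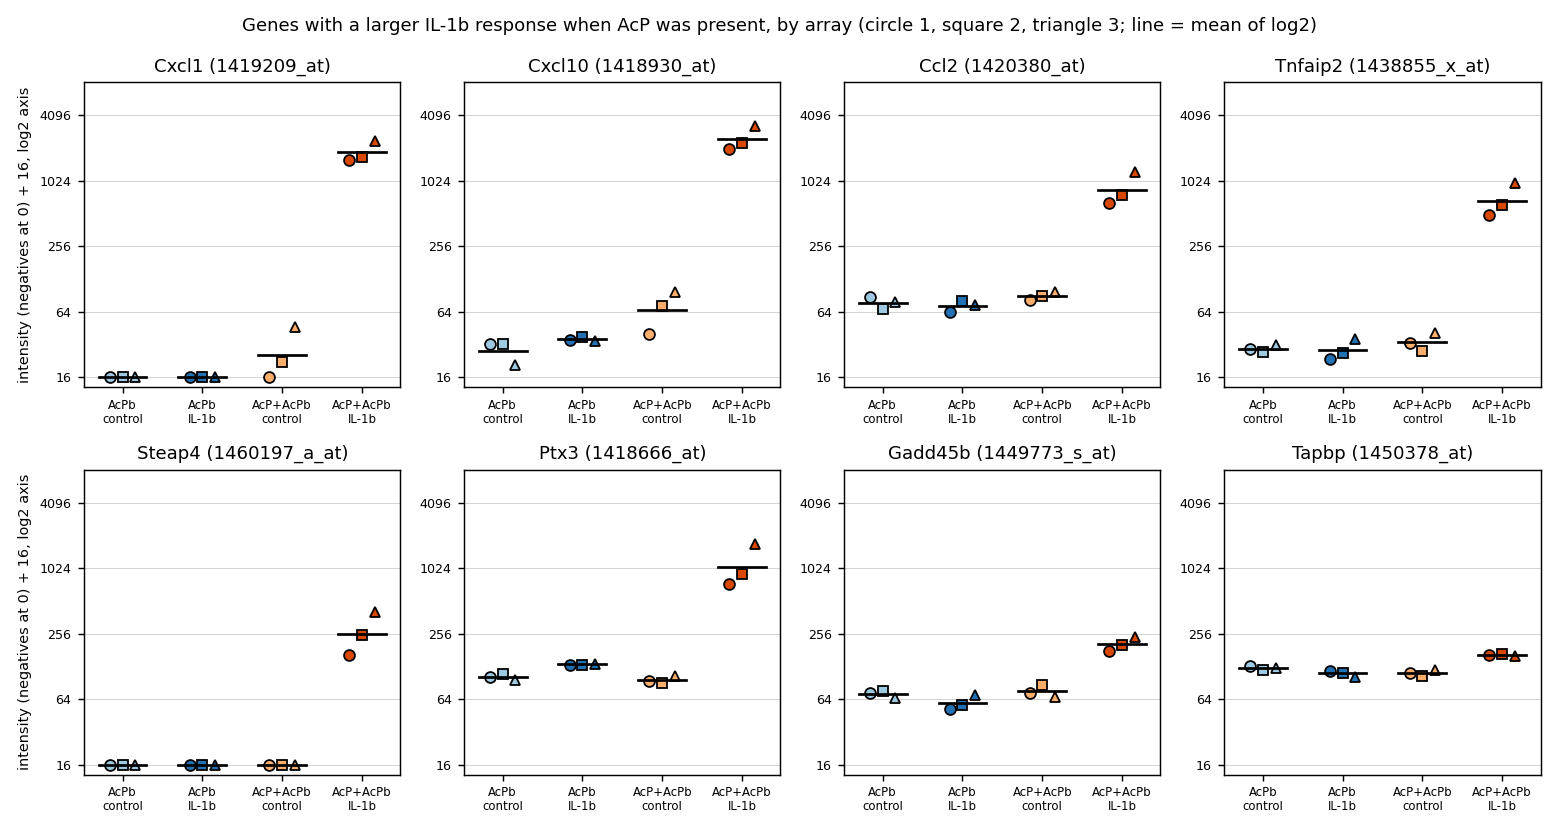
Intensity with negative values set to 0, plus 16, on a log2 axis, for 8 genes on each of the 12 arrays. Circles, squares and triangles are arrays 1, 2 and 3 of a group and the line is the mean of log2 values. In all 8 panels the 3 AcP+AcPb IL-1b arrays lie above the other 9, and Steap4 has its other 9 arrays at the floor of 16.

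Within the list of NF-kB targets and regulators, which holds no chemokine, the called differences were those of Tnfaip2, a TNF-induced protein that shapes membrane protrusions. On probe set 1438855_x_at it read 13.3, 11.4 and 15.5 in AcPb controls, 7.69, 11.1 and 20.1 with AcPb and IL-1b, and 17.1, 12.1 and 25.1 in AcP+AcPb controls. With AcP+AcPb and IL-1b it read 481, 591 and 959. The 9 other arrays overlapped and lay under the lowest stimulated AcP+AcPb array, and the difference was 4.34 ± 0.37 (adjusted p = 0.0149). A second probe set, 1416273_at, gave 3.26 ± 0.40 (adjusted p = 0.049), with the 3 other groups below 0, so that its size rests on the added 16. With the array code as a block it was 3.26, and its call was lost in 11 of 12 fits that left out an array. The third, 1457918_at, gave -0.55 ± 0.34 and group means between 42.2 and 61.6.

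Nfkbiz, the nuclear IkB protein IkB-zeta, read 65.0, 37.7 and 32.5 in AcPb controls, 41.2, 44.2 and 59.3 with AcPb and IL-1b, 54.6, 67.2 and 82.2 in AcP+AcPb controls and 419, 449 and 622 with AcP+AcPb and IL-1b. The stimulated AcP+AcPb arrays stood apart, but the difference of 2.50 ± 0.33 fell just outside the threshold (adjusted p = 0.0609, and 0.00016 on 24 arrays). Nfkbia, the gene of IkB-alpha, which holds NF-kB in the cytoplasm and is itself an NF-kB target, had 5 probe sets with differences of 0.30 to 1.11, all positive and none called. Its brightest probe set had means of 2516 and 2627 in the AcPb arm and 2695 and 4404 in the AcP+AcPb arm. Tnfaip3, the deubiquitinase A20, gave 1.66 ± 0.68 (adjusted p = 0.742, and 0.822 on 24 arrays). Of the list, 26 of 31 genes were on the array with 57 probe sets. Differences were called higher for 2, both Tnfaip2, and lower for 0, against 0.0444% and 0.0111% of all probe sets. The median was 0.14 against 0 over all probe sets. In 13 of the 57 (22.8%, against 1.39% of all probe sets) the 3 AcP+AcPb IL-1b arrays lay above the other 9. These were probe sets of Tnfaip2, Nfkbiz, Nfkbia, Relb, Rela, Birc3 and Nfkbie.

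Among acute phase and innate defence genes, Steap4 and Ptx3 had called differences. Steap4, a metalloreductase of iron and copper, was below 0 on all 9 arrays other than those of AcP+AcPb with IL-1b, where it read 147, 235 and 392. The difference was 4.00 ± 0.37 (adjusted p = 0.018), a size set by the floor on the 9 arrays, and the call was lost with an added constant or a floor of 64. Its other probe set was uncalled at 1.78 ± 0.75. Ptx3, a secreted pentraxin that binds microbes and complement, read 86.5, 93.7 and 81.1 in AcPb controls and 117, 117 and 120 with AcPb and IL-1b. In AcP+AcPb neurons it read 79.0, 73.7 and 87.8 without and 712, 892 and 1679 with the stimulus. The AcPb groups did not overlap either, but their response of 0.38 ± 0.26 did not pass the test (adjusted p = 0.672). The difference was 3.06 ± 0.36 (adjusted p = 0.0464), and 2.95 with the array code as a block. The call was lost in 9 of 12 fits without an array, at differences that stayed positive. The other Ptx3 probe set gave -0.17 and was uncalled.

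Lcn2, which binds bacterial siderophores, and Tlr2, a receptor for bacterial lipoproteins, rose in the AcP+AcPb arm, but their differences did not pass. Lcn2 read 27.5 to 53.2 in AcPb controls, 49.5 to 59.2 with AcPb and IL-1b, 67.4, 61.5 and 116 in AcP+AcPb controls, and 375, 438 and 758 with AcP+AcPb and IL-1b. AcP+AcPb control 3, with code 23, was the highest unstimulated array. The Lcn2 difference was 2.08 ± 0.42 (adjusted p = 0.261, and 0.28 on 24 arrays, 95% interval 1.13 to 3.04). Tlr2 gave 1.85 ± 0.28 (adjusted p = 0.113, and 0.0016 on 24 arrays). The list had 24 of 27 genes and 46 probe sets on the array, with a median of 0.11. Its differences were called higher for 2 and lower for 0, against 0.0444% and 0.0111% of all probe sets. The 3 stimulated AcP+AcPb arrays lay above all others in 9 probe sets (19.6%, against 1.39% of all probe sets).

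The windows before the start sites of the genes that rose most are shown because these genes moved together and several are known NF-kB targets. They hold the 250 bases before the annotated start, 5′ to 3′ on the gene's strand, from RefSeq on GRCm38.p6, which need not be the start used in these cells. Of the 11 genes with a rise in the AcP+AcPb arm, 10 had an entry. Capitals mark matches to the NF-kB consensus on either strand, overlapping matches merged. Cxcl1 lies at chr5:90890995-90891244 (plus strand), Cxcl10 at chr5:92348890-92349139 (minus), Tnfaip2 at chr12:111442411-111442660 (plus), Steap4 at chr5:7960222-7960471 (plus) and Ptx3 at chr3:66219637-66219886 (plus).
Cxcl1: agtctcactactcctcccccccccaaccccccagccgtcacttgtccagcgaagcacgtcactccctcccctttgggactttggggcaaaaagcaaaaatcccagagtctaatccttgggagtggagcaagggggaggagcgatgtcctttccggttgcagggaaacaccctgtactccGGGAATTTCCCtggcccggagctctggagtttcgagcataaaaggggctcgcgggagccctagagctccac
Cxcl10: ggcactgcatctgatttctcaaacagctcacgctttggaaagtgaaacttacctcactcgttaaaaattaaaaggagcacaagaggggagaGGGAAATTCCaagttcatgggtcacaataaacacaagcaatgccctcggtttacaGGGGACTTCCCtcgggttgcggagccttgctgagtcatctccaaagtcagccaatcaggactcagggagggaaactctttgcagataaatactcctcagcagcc
Tnfaip2: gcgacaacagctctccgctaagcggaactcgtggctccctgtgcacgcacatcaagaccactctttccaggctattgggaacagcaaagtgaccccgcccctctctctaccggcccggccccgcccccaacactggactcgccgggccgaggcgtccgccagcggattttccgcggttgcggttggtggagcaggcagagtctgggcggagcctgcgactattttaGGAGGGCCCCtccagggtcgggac
Steap4: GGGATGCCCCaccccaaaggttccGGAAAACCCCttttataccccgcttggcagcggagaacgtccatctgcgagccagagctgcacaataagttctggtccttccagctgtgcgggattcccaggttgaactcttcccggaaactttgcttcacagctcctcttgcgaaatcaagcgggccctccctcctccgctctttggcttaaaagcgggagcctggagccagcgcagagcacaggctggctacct
Ptx3: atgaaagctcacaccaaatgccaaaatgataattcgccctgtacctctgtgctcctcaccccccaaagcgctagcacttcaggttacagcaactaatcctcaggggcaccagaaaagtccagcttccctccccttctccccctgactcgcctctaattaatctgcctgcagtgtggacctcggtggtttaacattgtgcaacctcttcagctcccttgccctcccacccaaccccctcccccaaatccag
The consensus occurs in 7.25% of 32851 such windows and in those of 4 of the 10 genes: Cxcl1, Cxcl10, Tnfaip2 and Steap4. In Cxcl1 the match begins 71 bases before the start, and in Cxcl10 matches begin 159 and 104 bases before it. The window of Cxcl10 also holds the AP-1 site TGANTCA, found in 6.75% of windows. Among further genes of the lists, Cxcl2, Nfkbia and Tlr2 had a match to the NF-kB consensus, and Gbp2 and Lcn2 had none in this window. The Gbp2 window holds an AP-1 site and an interferon-stimulated response element. A match is a run of letters, not a bound site.

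In the list of interferon-inducible genes the median difference was 0.09. Some members, mainly guanylate-binding proteins, had large differences, and none passed the test. Gbp2, a guanylate-binding protein of cell-autonomous defence, read 10.2, -3.09 and 14.3 in AcPb controls, 11.2, 22.3 and 9.12 with AcPb and IL-1b, and 6.33, 8.77 and 0.13 in AcP+AcPb controls. With AcP+AcPb and IL-1b it read 225, 296 and 519. The difference was 3.70 ± 0.49 (adjusted p = 0.0678, and 0.00027 on 24 arrays), with a second probe set at 3.29. Gbp6, of the same family, was below 0 on the other 9 arrays and read 45.2, 76.8 and 155 with AcP+AcPb and IL-1b. Its difference was 2.63 ± 0.42 (adjusted p = 0.126, and 0.0029 on 24 arrays). Ddx58, of the same list, went the other way at -1.23 ± 0.35 (adjusted p = 0.547), and its 3 probe sets spanned -1.23 to 0.21. Of 64 probe sets for 36 of 41 listed genes, 0 differences were called, which is near the share over all probe sets (0.0444% higher and 0.0111% lower). In 11 (17.2%, against 1.39% of all probe sets) the 3 stimulated AcP+AcPb arrays were on top. The AcP+AcPb response was called higher for 6 of the 64, where over all probe sets 0.133% were called higher. The 6 belonged to Gbp2, Gbp6, Gbp7, Irgm1 and H2-K1. Tapbp, the gene of tapasin, which loads peptides onto class I molecules such as H2-K1, was called outside the list. It read 112, 104 and 108 in AcPb controls, 100.2, 96.0 and 87.4 with AcPb and IL-1b, 95.3, 89.3 and 102 in AcP+AcPb controls, and 146, 151 and 144 with AcP+AcPb and IL-1b. This gave 0.72 ± 0.08 (adjusted p = 0.0259). The call was lost in 6 of 12 fits without an array, with array medians centred and on all 24 arrays.

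Immediate early genes and brakes on MAP kinase signalling had 1 called difference among 82 probe sets of 44 genes, with a median of 0.06. Of all probe sets, 0.0444% were called higher and 0.0111% lower. Gadd45b, a stress-induced regulator of the p38 and JNK pathways, read 56.6, 60.5 and 49.4 in AcPb controls, 36.3, 40.6 and 54.5 with AcPb and IL-1b, and 57.7, 71.0 and 51.2 in AcP+AcPb controls. With AcP+AcPb and IL-1b it read 163, 186 and 224, above all others. The difference was 1.71 ± 0.21 (adjusted p = 0.049), with other probe sets at 1.01 ± 0.19 and -0.25 ± 0.22, both uncalled. The call was lost in 10 of 12 fits without an array. Cebpd, a transcription factor of the acute phase response, read 75.0, 81.8 and 73.9, then 88.5, 73.2 and 69.5 in the AcPb arm. In the AcP+AcPb arm it read 106, 132 and 233 without and 535, 598 and 827 with IL-1b. Control 3 was again the highest control. The difference was 2.00 ± 0.36 (adjusted p = 0.198, and 0.0858 on 24 arrays), or 1.40 with the array code as a block. Ier3, an early response gene of cell survival, gave 1.34 ± 0.24 (adjusted p = 0.198, and 0.0914 on 24 arrays). Fosl2, a Fos-family subunit of AP-1, gave -1.68 ± 0.41 on a dim probe set (adjusted p = 0.443).

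**Figure D3:**
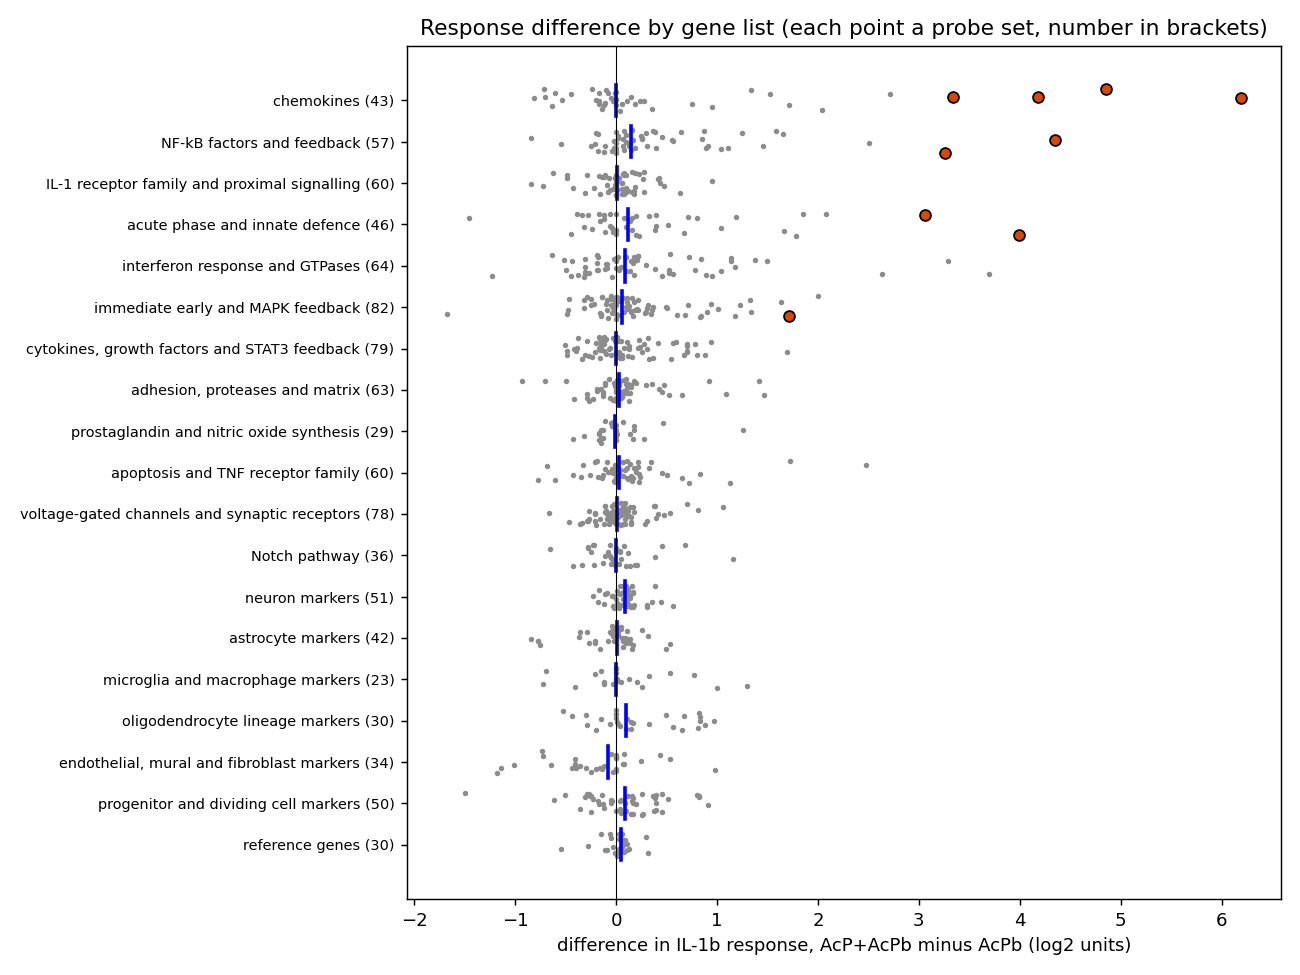
Differences in IL-1b response, AcP+AcPb minus AcPb, in log2 units, for the probe sets of 19 gene lists, with called probe sets as orange circles and each list's median as a blue bar. Called points lie in the chemokine, NF-kB, acute phase and immediate early lists, and every median lies between -0.09 and 0.14.

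The remaining lists held no called difference, which is near the share over all probe sets (0.0444% called higher and 0.0111% lower). Among cytokines and growth factors (79 probe sets, median 0.00), Csf1, the macrophage growth factor, had the largest. Csf1 gave 1.69 ± 0.29 (adjusted p = 0.174, and 0.419 on 24 arrays). Its stimulated AcP+AcPb arrays read 152, 196 and 217 against 28.3 to 59.8 on the other 9. Icam1, an adhesion molecule that binds leukocyte integrins, gave 1.47 ± 0.39 (adjusted p = 0.509, and 0.671 on 24 arrays). Its AcPb arrays read 9.50 to 24.6, its AcP+AcPb controls 56.5, 71.7 and 109, and its stimulated AcP+AcPb arrays 191, 301 and 377. Its control level was already 1.54 log2 units higher in the AcP+AcPb arm (adjusted p = 0.032). Ptgs2, the inducible prostaglandin synthase, rose by 1.22 with AcP+AcPb. It differed by 1.26 ± 0.18 (adjusted p = 0.0977, and 0.556 on 24 arrays). Apoptosis genes, channels and synaptic receptors, the Notch pathway and the reference genes had medians of 0.02, 0.01, -0.01 and 0.05. The largest channel or receptor difference was that of the sodium channel Scn2a, 1.06 ± 0.78 (adjusted p = 0.901).

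No response difference was called among the receptor's own parts. Of all probe sets, 0.0444% were called higher and 0.0111% lower, so no call in a list of this size is near that share. The 60 probe sets of the IL-1 receptor family and its proximal signalling, for 27 of 30 genes, spanned -0.85 to 0.95 with a median of 0.01. Myd88, the adaptor, marked the upper end at 0.95 ± 0.56, with an AcPb control group spread from 87.7 to 349. The 5 probe sets of Il1rap had group means between 23.8 and 144, and none was called in the response difference. An introduced coding sequence need not hold the stretch that a probe set reads, so these levels check neither the genotype nor the arms. Il1r1, the signalling receptor, was below 0 in every group mean of its 2 probe sets. Il1rn, the secreted receptor antagonist, gave -0.49 ± 0.44 on its brightest probe set, and Il1r2, the decoy receptor, 0.06 ± 0.55.

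Several called differences of genes on none of the lists began from unequal control levels. Lsm7, a subunit of the Sm-like ring that binds U6 RNA and decaying mRNA, read 685, 706 and 655 in AcPb controls and 749, 769 and 723 with IL-1b. In the AcP+AcPb arm it read 298, 334 and 344 without and 667, 677 and 753 with the stimulus. The AcP+AcPb controls stood below all 9 other arrays, and the difference was 0.94 ± 0.09 (adjusted p = 0.018). The unstimulated difference was -1.03 (adjusted p = 0.00066). Swt1 had 2 probe sets, of which 1 gave -0.17 and was uncalled. The called one had the pattern of Lsm7 near the floor, with AcP+AcPb controls at -18.9, -26.5 and -15.1. The other 3 group means of the called one lay between 39.4 and 56.1. Its difference of 1.57 ± 0.19 (adjusted p = 0.049) was lost in 9 of 12 other settings and in 10 of 12 fits without an array, and it was 0 with the floor at 64.

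Zfp511, a zinc finger gene, ran opposite ways in the arms on probe set 1434858_x_at. It read 82.4, 66.3 and 73.7, then 120, 118 and 117 in the AcPb arm, and 128, 116 and 119, then 62.8, 62.9 and 76.4 in the AcP+AcPb arm. The difference was -1.30 ± 0.11 (adjusted p = 0.0149), but its other 2 probe sets, which are brighter, gave 0.11 ± 0.12 and -0.03 ± 0.06. The Zfp511 fall with AcP+AcPb passed the test (adjusted p = 0.0114), and its rise with AcPb did not (adjusted p = 0.057). Wscd2 crossed in the same way, from a mean of 342 to 463 with AcPb and from 445 to 342 with AcP+AcPb. The Wscd2 difference was -0.78 ± 0.08 (adjusted p = 0.0186). Neither Wscd2 response passed by itself (adjusted p = 0.057 with AcPb and 0.0519 with AcP+AcPb). On all 24 arrays neither Zfp511 nor Wscd2 was called. Camk2g, the gamma chain of a calcium-dependent kinase, fell by 0.30 with AcP+AcPb, from 1896 ± 55.2 to 1539.7 ± 23.5 (SD, n = 3), beside means of 1500.2 and 1460.0 with AcPb. Its difference was -0.26 ± 0.03 (adjusted p = 0.0464), and its AcP+AcPb controls were higher than the AcPb controls by 0.33 (adjusted p = 0.000834). The call was lost in 9 of 12 fits without an array and in 6 of 14 other settings.

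In the 9 probe sets where the AcPb response was the larger, most moved little. Obsl1, a cytoskeletal adaptor, read 56.5, 48.1 and 58.8 in AcPb controls and -8.39, -16.7 and -16.6 with IL-1b, while AcP+AcPb arrays spanned 31.7 to 52.3 in both groups. The difference was 2.22 ± 0.20 (adjusted p = 0.018), and the other 4 Obsl1 probe sets gave -0.42 to 0.02. Its stimulated AcPb arrays were below 0, and its size ran from 0 with the floor at 64 to 3.06 with an added constant of 8. The call was lost with the floor at 16 or 64 and on all 24 arrays. The probe set 1445295_at, which has no gene symbol, gave 3.17 ± 0.35 (adjusted p = 0.033) from AcPb controls of 49.1, 44.9 and 29.9 against 3 stimulated arrays below 0, and AcP+AcPb arrays of 20.7, 5.40 and 27.1 against 77.5, 67.0 and 55.7. That call was lost in 8 of 12 fits without an array and with the floor at 64, where the difference was 0.11. For 1445295_at neither response passed the test by itself, nor for Mlf2 and 4933439C10Rik below. Smaller differences were those of Tpst1, a protein-tyrosine sulfotransferase (875 to 613 with AcPb, 891 to 845 with AcP+AcPb, difference 0.43 ± 0.05), and Mrps17 of the mitochondrial ribosome (1600.0 to 1299.7 with AcPb, 1495 to 1496 with AcP+AcPb, difference 0.30 ± 0.03). Pcnp gave 0.28 ± 0.03 (its uncalled probe set 0.03), Mlf2 0.22 ± 0.03 and 4933439C10Rik 0.41 ± 0.05 (its uncalled probe sets down to -0.08). Each of these 5 calls was lost with array medians centred, with the dim filter at the 40th percentile and on all 24 arrays, and in 9 to 11 of the 12 fits without an array. Cyp2j13, Pramel25 and 1431860_at had means under 50 in all 4 groups, and their differences of 0.93, -0.31 and -0.98 rest on readings near or below 0. Their calls were lost with the floor at 16 or 64 and on all 24 arrays.

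**Figure D4:**
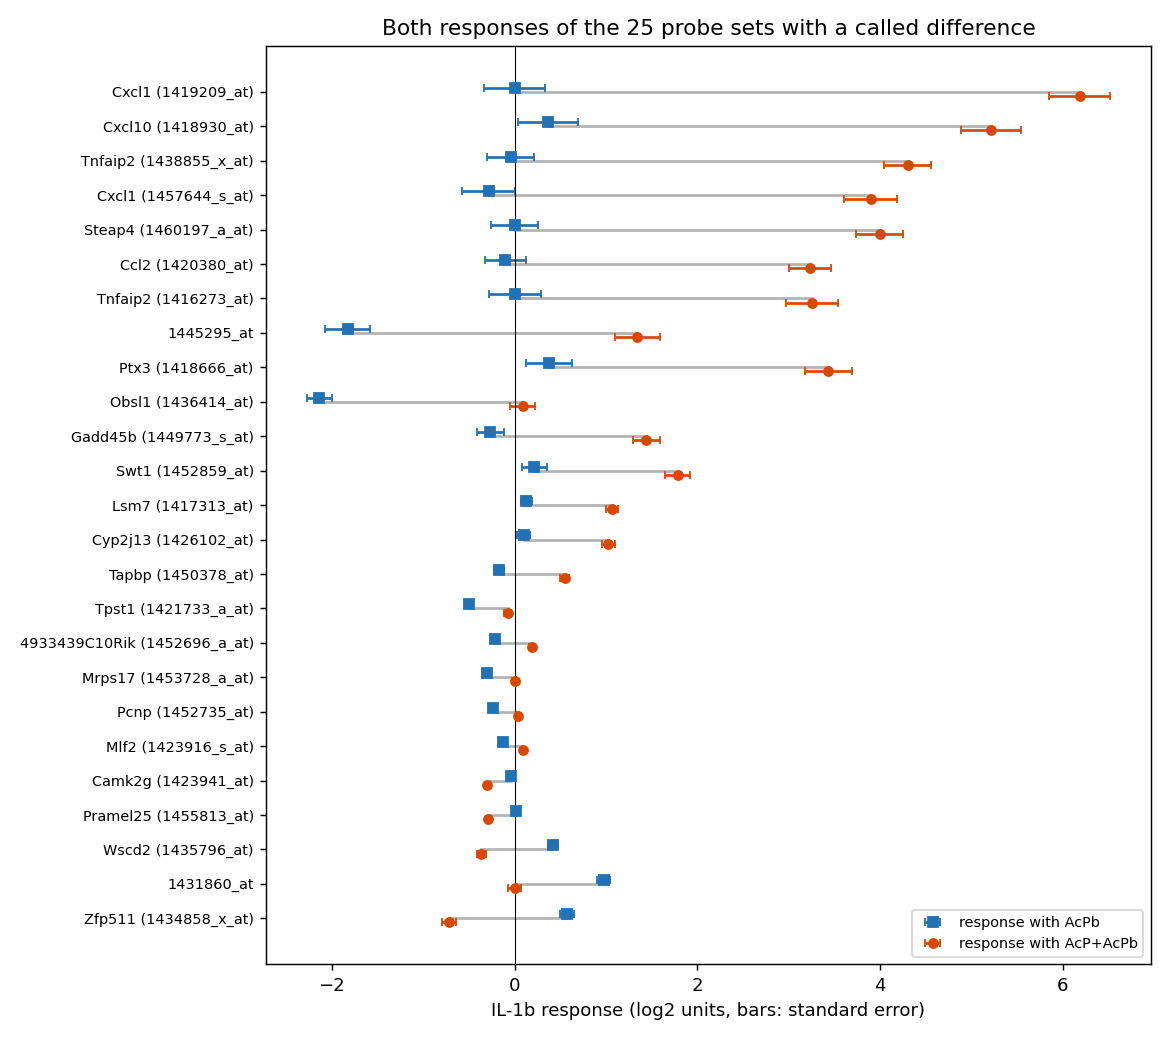
IL-1b responses with AcPb (blue squares) and with AcP+AcPb (orange circles), in log2 units with standard errors, for the 25 probe sets with a called difference. For the upper 7 rows the AcPb response lies between -0.28 and 0.36 and the AcP+AcPb response between 3.24 and 6.19.

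The responses that make up the difference, which share their arrays with it, were as follows. With AcP+AcPb, IL-1b raised 60 probe sets (0.133%) and lowered 29 (0.0644%). Of the 60, 35 belonged to genes of the lists, which hold 953 of the 45037 probe sets. The lists were chosen with earlier results of these data known. The 29 lowered were on none of the lists, which is near the share of the lists among all probe sets. Of the 29, 27 fell by less than 1 log2 unit, for example Plin2, a lipid droplet coat protein, by 0.59, and the fatty acid receptor Cd36 by 0.85. Rises outside the lists included S1pr3, a sphingosine 1-phosphate receptor, at 1.92, and Zfp36l1, which promotes mRNA decay, at 0.65. The count of 89 was 148 without AcP+AcPb control 1, 259 without control 3 and 188 without IL-1b array 1, and 53 (45 higher, 8 lower) with array medians centred.

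With AcPb, IL-1b raised 8 probe sets (0.0178%) and lowered 13 (0.0289%), and 10 of the 21 had means under 100 in all 4 groups. A single list member was among them, Igf1, a growth factor, at 0.25 ± 0.03 (adjusted p = 0.0387). The lists hold 953 of the 45037 probe sets, so 1 of 21 is near their share. Tcf19 rose in both arms, by 1.57 with AcPb and 1.17 with AcP+AcPb, from means below 0 to 31.4 and 20.2. No probe set of the chemokine, NF-kB, acute phase, interferon or immediate early lists was called in this response, in either direction. With 0.0178% of all probe sets called higher and 0.0289% lower, no call in these lists is near that share. Of all probe sets, 5113 had an unadjusted p under 0.05. The count of 21 was 4 on all 24 arrays, 12 with either filter on dim probe sets, 46 with values floored at 16 and 94 with array weights. Leaving out 1 array of the AcPb arm gave 44 (control 2), 96 (IL-1b array 1) and 35 (IL-1b array 3), and leaving out 1 of the AcP+AcPb arm gave 47 (control 2), 39 (control 3), 9 (IL-1b array 1) and 13 (IL-1b array 2).

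The arms also differed before stimulation, by 1035 probe sets, 439 higher (0.975%) and 596 lower (1.32%) in AcP+AcPb controls. This comparison sets code 21 against codes 22 and 23, so arm and code cannot be told apart. Dividing-cell and progenitor markers were called lower for 15 of 50 probe sets and higher for 0, among them Mcm5, Mcm7, Pcna, Mki67 and Top2a, with a median of -0.44. Oligodendrocyte lineage markers were lower for 6 of 30, among them Mbp, Pdgfra, Sox10 and Cldn11, with a median of -0.30. In bulk samples, fewer cells of a type and less RNA per cell cannot be told apart. The count was 594, 339 and 623 without AcPb control 1, 2 or 3, and 492 without AcP+AcPb control 2, and 369 with array medians centred.

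The cell makeup was read from marker lists, of which none had a called response difference. That is near the share over all probe sets (0.0444% called higher and 0.0111% lower). Neuron markers (24 genes) summed to 69877 to 74382 intensity units on all 12 arrays and astrocyte markers (14 genes) to 36891 to 41868, with no member of either list under a group mean of 16. Sums over different probe sets cannot be set against each other. Gfap, the astrocyte filament gene, read 472 to 759 on AcPb arrays. In the AcP+AcPb arm it read 1100, 1187 and 1794 without and 615, 621 and 992 with IL-1b. Its difference of -0.84 ± 0.39 (adjusted p = 0.789) was the lowest of 42 astrocyte probe sets, which reached 0.53 with a median of 0.01. The 3 probe sets of Gfap were all negative and the 3 of Aqp4 all positive. Gjb6 gave -0.37, and Slc4a4 had 4 negative and 1 positive. Microglia and macrophage markers (16 genes) summed to 839 to 1333 with AcPb and 746 to 858 with AcP+AcPb, and 7 of the 16 (Itgam, Ctss, Cx3cr1, Tmem119, Aif1, C1qa and C1qc) had means under 16 in all 4 groups. Other members read higher, with group means of 132 to 193 for Adgre1, 66.9 to 81.5 for C1qb, 45.5 to 73.5 for Trem2 and 34.8 to 70.5 for Csf1r. Oligodendrocyte lineage sums were 6875 to 8324 with AcPb, 4901 to 6162 in AcP+AcPb controls and 5974 to 6682 with AcP+AcPb and IL-1b. Endothelial, mural and fibroblast markers (18 genes) summed to 1620 to 1914 in AcPb controls, 1980 to 2705 with AcPb and IL-1b, and 1520 to 2102 in the AcP+AcPb arm, with 5 of the 18 under 16 in each group, of which Pecam1, Cldn5, Tie1 and Vwf were so in every group. The part of these levels in the response difference was not tested.

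The other 12 arrays of the series, all with code 21, allow a look at the same genes without any shared array. There the IL-1b response of neurons with AcP was set against that of neurons with CD25, an IL-2 receptor chain that takes no part in IL-1 signalling, a comparison whose main genes were known beforehand, so its values are set beside those above as a description. It had 35 probe sets higher (0.0777%) and 1 lower (0.00222%). Of the 25 probe sets, 8 were called there too, all higher, out of the 36: both called probe sets of Cxcl1 and of Tnfaip2, and Cxcl10, Steap4, Ccl2 and Ptx3. The differences were 7.47 ± 0.37 for Cxcl1 (1419209_at), 6.54 ± 0.44 for Cxcl10, 5.23 ± 0.30 for Tnfaip2 (1438855_x_at), 4.75 ± 0.50 for Steap4, 3.82 ± 0.42 for Ptx3 and 3.34 ± 0.27 for Ccl2. Gadd45b had 1.74 ± 0.26 without a call (adjusted p = 0.11). Lsm7 had 0.23 ± 0.08, with an AcP control mean of 634 where the AcP+AcPb controls averaged 325. Obsl1 and 1445295_at had the opposite sign, -0.58 ± 0.82 and -1.14 ± 0.65. In all, 20 of the 25 had the same sign, the 8 among them, but the share over all probe sets was not computed. Some of these values lay within their SE of 0: Camk2g (-0.02 ± 0.10), Wscd2 (-0.06 ± 0.27) and 4933439C10Rik (0.05 ± 0.28). The list genes not called here but called there included Nfkbiz (3.29), Gbp2 (4.34), Gbp6 (2.67), Cxcl2 (2.98), Tlr2 (1.94), Lcn2 (3.97), Cebpd (3.42) and Ier3 (2.54).

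**Figure D5:**
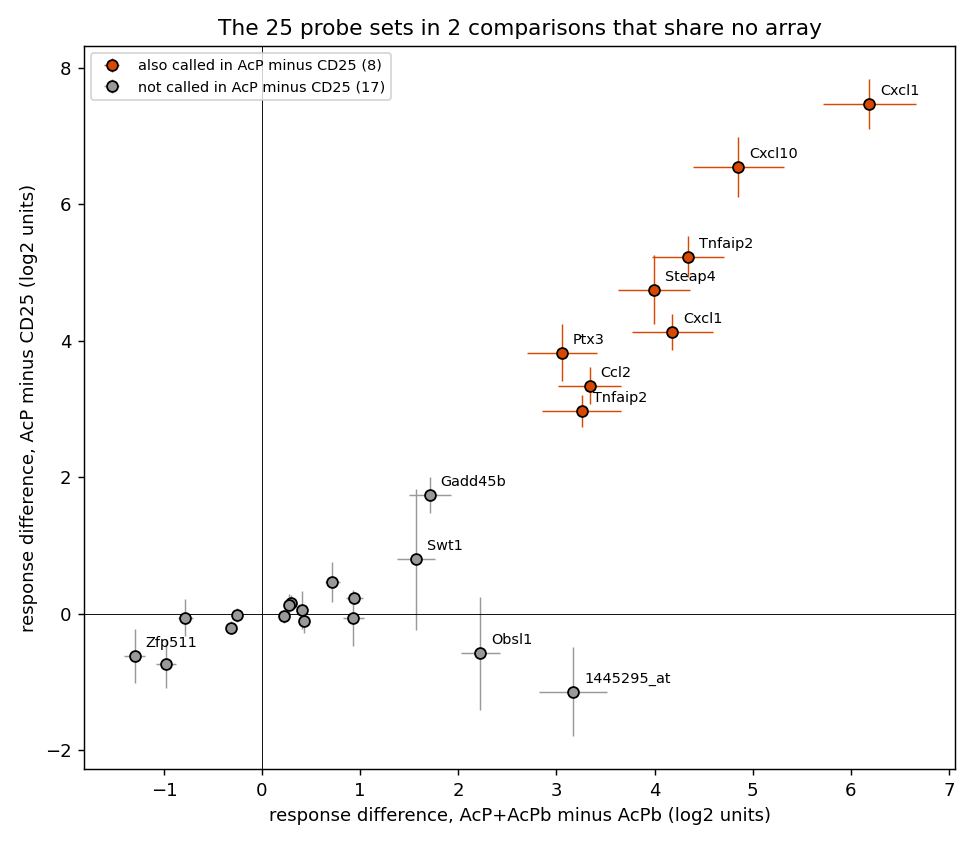
Response difference AcP+AcPb minus AcPb (horizontal axis) against AcP minus CD25 on the other 12 arrays (vertical axis), in log2 units with standard errors, for the 25 probe sets. The 8 probe sets called in both (orange) lie at 3.06 or more on the horizontal axis and at 2.97 or more on the vertical one, and the other 17 lie at 1.74 or less on the vertical axis.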

How the data were processed

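RNA was extracted with a column kit and biotin-labelled (Eberwine method), per the labels' protocols, and hybridised to 24 one-colour arrays. Linear intensity values per probe set were deposited by the authors. The sources used here do not tell how they were summarised, background-corrected or scaled. Precision is limited by the 3 arrays per group. All arrays held different values. From the 45077 probe sets, 40 with AFFX names were dropped. The gene table given with the arrays names 34945 probe sets by 1 symbol, 932 by several and 9160 by none.

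Negative values were set to 0, and log2(value + 16) was fitted with limma 3.58.1 (R 4.3.3, lmFit and eBayes) as 4 group means on 12 arrays, with 8 residual and 0.594 prior degrees of freedom. After setting negative values to 0, 3851 probe sets (8.55%) were constant. The 4 comparisons were the response difference, both responses and the unstimulated difference, each two-sided and adjusted by Benjamini-Hochberg over 45037 probe sets, with a call at an adjusted p under 0.05. With 3 arrays against 3, an exact permutation test cannot go below 0.1, and none was used. The script was tested on simulated data. The AcP minus CD25 comparison was fitted alike on the other 12 arrays, and was added after the data were seen. No replicate block was used.

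The 19 lists held 502 genes, 452 of them on the array. Named were up to 20 genes with the largest called positive and 10 with the largest called negative difference, with a mean of at least 50 in a group, up to 4 members of each list by size of difference, and Il1rap, Il1r1, Il1r2, Il1rn, Il2ra and Nfkbia. Other genes were named after their values were seen. The members, lists and rule were chosen with earlier results of these data known. Alternatives covered the added constant, the floor, normalization, dim filters, 1 probe set per gene, all 24 arrays, the variance model, the array code, the replicate number and leaving out each array. Promoter windows were searched and plots drawn with Python 3.11.15 and matplotlib 3.10.9.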

Additional observations from a re-analysis of the deposited data

Results flagged for a closer look

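The test of the response difference itself marked 25 probe sets. The differences, AcP+AcPb minus AcPb in log2 units, were positive for Cxcl1 (6.19 and 4.18 on its called probe sets), Cxcl10 (4.85), Tnfaip2 (4.34 and 3.26), Steap4 (4.00), Ccl2 (3.34), 1445295_at (3.17), Ptx3 (3.06), Obsl1 (2.22), Gadd45b (1.71), Swt1 (1.57), Lsm7 (0.94), Cyp2j13 (0.93), Tapbp (0.72), Tpst1 (0.43), 4933439C10Rik (0.41), Mrps17 (0.30), Pcnp (0.28) and Mlf2 (0.22). They were negative for Camk2g (-0.26), Pramel25 (-0.31), Wscd2 (-0.78), 1431860_at (-0.98) and Zfp511 (-1.30). Groups of 3 arrays were too small to be searched for a single distant array.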

How the results depend on the processing

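The response difference had 25 calls, between 17 and 29 under the other constants, floors, normalizations, filters and variance models and with all 24 arrays, 98 when the array code was a block, and 20 to 69 without an array. The AcP+AcPb response (89) had 53 calls with array medians centred and 65 to 259 without an array. The AcPb response (21) had 46 with the floor at 16, 12 with either dim filter, 4 on 24 arrays, 94 with array weights, 39 when the array code was a block, and 9 to 96 without an array. The unstimulated difference (1035) had 369 with medians centred and 339 to 1101 without an array; it could not be fitted with the array code. With a replicate block the counts were 1, 55, 5 and 644, and Tnfaip2 (1438855_x_at) alone kept its call in the response difference. The 18 correlations of the deviations of same-numbered arrays ran from -0.15 to 0.11, with 1 over 0.1. They were not taken for the responding genes alone. In the 13 probe sets that rose with AcP+AcPb, array 3 was the highest control in 11 and the highest IL-1b array in 10. In the 8 also called in AcP minus CD25, it was so in 7 and 8. Whether same-numbered arrays are paired in these probe sets was not tested. Tnfaip2 on probe set 1438855_x_at was called under all alternatives run, and Cxcl10, Ccl2, Lsm7 and Cxcl1 (1419209_at) under all but the replicate block. Steap4 also lost its call with a constant or floor of 64. Differences that changed sign were uncalled: with the floor at 64, Osmr (0.0102), Mmp2 (-0.00930), Kcnc1 (-0.0304) and Gpr17 (-0.28); with the array code as a block, Grik2 (-0.00564), Trem2 (0.42), C1qb (-0.00491) and Gpr17 (-0.23); and Ywhaz without AcPb control 2 (0.0351) or AcP+AcPb IL-1b array 3 (0.0169). Of the other values for single genes, 2095 kept their direction and side of the threshold, 231 lost and 29 gained a call. The cause of these changes was not tested. Genes with readings near 0 are limited by the unknown background.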
